A study of Mus musculus with 6 samples.

Results

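DNA replication and S-phase genes are described here as 41 genes chosen by name for their textbook role in copying the genome: origin licensing, helicase activation, DNA polymerases, the sliding clamp and its loader, single-strand binding, Okazaki fragment joining, deoxynucleotide supply and control of the G1/S step. All 41 had a probe set with a single gene symbol, and all 41 were among the 12795 genes whose level was high enough to be tested. The rule that names them uses no measured value, though it was written with earlier results of these data known. The study put a lentiviral construct (pLenti6.3) stably into primary cultured mouse colorectal cancer cells of the line #3346, from the iKAP model, whose tumours carry engineered alleles, Apc and p53 among them. The control cells carried a GFP construct and the other cells the IRF2 open reading frame, and total RNA of each was hybridised to 3 Affymetrix 3' expression arrays. The protein IRF2 belongs to the interferon regulatory factors, which bind DNA at interferon-responsive genes. Both groups grew in DMEM with a tetracycline-free supplement, and age, dose and time are not given in the labels. The labels do not tell whether replicate arrays hold RNA of separate cultures or clones; p-values therefore cover the spread among these 6 arrays alone, and that spread may be technical.

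A cell copies its DNA once per division. In G1 the origin recognition complex, Cdc6 and Cdt1 load the ring-shaped MCM helicase onto origins; at the start of S phase Cdc45 and the GINS complex switch that helicase on, and polymerases extend primers behind it while PCNA holds them on the template. E2F transcription factors, held back by the RB family until cyclin E and CDK2 act, drive many of these genes together at the G1/S boundary, and fast-dividing intestinal crypt and tumour cells are known for high levels of them.

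Some measurements bear on every result. The Irf2 probe set went against the labels: it read 62.6 ± 2.53 in the GFP control (intensity, SD, n = 3) and 36.3 ± 0.934 in the arrays labelled IRF2. No source used here says if that probe set reads the introduced open reading frame, so the arrays of that construct are named "labelled IRF2". An exchange of the labels between the groups would turn every direction given here, and it was not tested. Median intensity ran from 18.2 to 18.7 over the 6 arrays. The ratio of 3' to 5' signal of a control transcript is a measure of RNA integrity. For the transferrin receptor it was 3.61 to 3.78 in the GFP control and 3.81 to 4.47 in the labelled IRF2 arrays. In the same order, it was 0.829 to 0.860 and 0.846 to 0.860 for Gapdh, and 1.001 to 1.017 and 0.996 to 1.023 for beta-actin. The ranges of Gapdh and beta-actin overlapped between groups. Those of the transferrin receptor did not: every labelled IRF2 array lay above every GFP control array. The part of RNA integrity in the results was not tested. Of 8 intestinal epithelial markers, 7 were tested, 3 were lower and 2 higher, and their summed intensity was 14521 to 14669 in the GFP control and 16013 to 16149 in the labelled IRF2 arrays. The keratins Krt8, Krt18 and Krt19 read 3513 or more on every array, the adhesion genes Epcam, Cdh1 and Cdh17 were lower in the labelled IRF2 arrays, and the brush border gene Vil1 was not above 7.03 on any array, near the highest Trp negative control (6.52). The pan-leukocyte gene Ptprc was at 4.30 to 5.42, within the range of the Trp controls (3.69 to 6.52). The summed markers of the other cell types were 234 to 270 and 259.7 to 276 (immune, 7 measured), 137 to 149 and 144 to 154 (fibroblast, 7), and 97.3 to 108 and 90.5 to 102 (endothelial, 6), the GFP control given first. Single markers in these lists differed: the fibroblast receptor gene Pdgfra was higher by 0.70 (SE 0.10, adjusted p = 7.90e-05), more than any member differed, and Pdgfrb differed by -0.40 (SE 0.08, adjusted p = 0.00117). The monocyte gene Cd14 was higher by 0.18 (adjusted p = 0.0350), and the endothelial gene Egfl7 differed by -0.22 (adjusted p = 0.0315). The part of these markers in the results was not tested.

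Replication genes were lower in the labelled IRF2 arrays far more often than higher, and by small amounts. Of the 41 members, 23 were lower at an adjusted p under 0.05 (56.1%), 1 was higher (Rfc3, 2.4%) and 17 passed in neither direction. Over all genes tested, 19.8% were lower and 16.5% higher. Replication genes are bright on these arrays, and bright genes are called more often: among the 6851 genes with a mean intensity of at least 100, a level that 40 of the 41 members reach and that was chosen after seeing the data, 28.7% were lower. The median difference of the members, labelled IRF2 over GFP control, was -0.0925 on the log2 scale, against -0.0007 over all genes tested and -0.0149 over those bright genes. Of the 23 that were lower, 13 differed by more than 0.2 and 10 by less. The largest decrease was 1.33-fold, and no member changed by 1.5-fold or more. In a bulk culture, fewer cells in S phase and less of these transcripts per cell cannot be told apart.

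The same picture held array by array. All 3 labelled IRF2 arrays lay below all 3 GFP control arrays for 26 members, and above them for 2 (Rfc3 and Mcm4). Over all genes tested, the shares were 24.2% below and 22.0% above. Of the 6851 bright genes, 2319 lay below and 1792 above in this way. Relative to each member's GFP control mean, the median member stood at 0.0164, -0.0192 and 0.0118 on the 3 GFP control arrays and at -0.0897, -0.1112 and -0.0816 on the labelled IRF2 arrays (log2). The labelled IRF2 arrays had 34, 31 and 30 of 41 members below that mean. GFP control replicate 2 had 32 of 41 below it too, by far smaller amounts, so the count of members below the mean does not separate the groups while the size of the shift does.

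**Figure D1:**
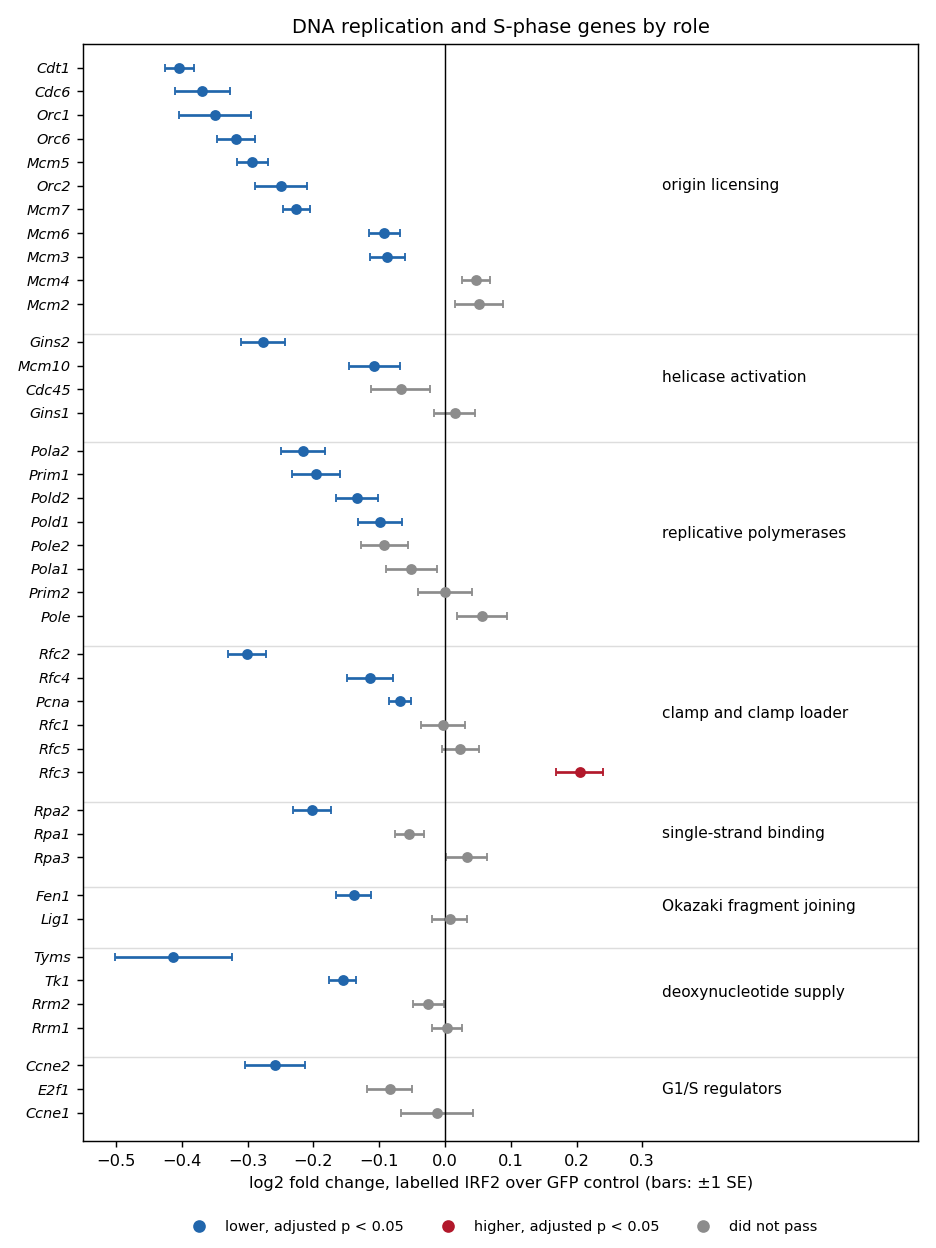
Each point is the log2 difference of 1 member gene, labelled IRF2 over GFP control (3 arrays each), with bars of 1 SE either side, grouped by role; colour marks an adjusted p under 0.05. The 9 lower genes of origin licensing run down to -0.40 (Cdt1), while Rfc3 at 0.20 is the single member that was higher.

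The promoters of these genes bear on whether they carry the shared E2F element through which they are known to be switched on together, so the stretch around a match is shown for the 7 members in which one lies before the start, large and small differences alike. RefSeq windows on GRCm38.p6, from 250 bases before to 50 bases after the annotated start, were given for 34 of the 41 members; Mcm4, Pole, Gins2, Gins1, Ccne2, Prim2 and Rfc2 had none. The sequences below run 5′ to 3′ on the gene's own strand up to at most the annotated start, and the capitals mark the E2F-type match farthest before the start.
Orc1 (chr4:108579397-108579453, plus strand): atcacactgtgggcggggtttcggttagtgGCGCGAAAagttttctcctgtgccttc
Cdc6 (chr11:98907983-98908050, plus strand): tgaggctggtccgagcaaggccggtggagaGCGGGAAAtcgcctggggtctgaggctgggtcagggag
Mcm5 (chr8:75109326-75109393, plus strand): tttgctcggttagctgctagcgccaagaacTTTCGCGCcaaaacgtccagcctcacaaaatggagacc
Mcm7 (chr5:138172011-138172078, minus strand): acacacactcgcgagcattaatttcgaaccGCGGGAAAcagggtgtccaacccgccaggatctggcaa
Mcm6 (chr1:128359778-128359845, minus strand): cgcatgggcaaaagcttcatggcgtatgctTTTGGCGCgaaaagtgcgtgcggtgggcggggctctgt
Pola1 (chrX:93632256-93632323, minus strand): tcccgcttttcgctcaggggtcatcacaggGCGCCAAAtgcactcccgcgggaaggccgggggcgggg
Rfc3 (chr5:151651209-151651248, minus strand): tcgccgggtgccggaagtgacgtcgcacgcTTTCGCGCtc

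The E2F-type search took TTTCGCGC, TTTGGCGC, TTTCCCGC and TTTGCCGC on both strands, where matches may overlap each other. It found at least 1 match in 12 of the 34 members (35.3%): Cdc6, Cdt1, Lig1, Mcm3, Mcm5, Mcm6, Mcm7, Orc1, Pola1, Pold1, Pole2 and Rfc3. In Cdt1, Lig1, Mcm3, Pold1 and Pole2 the matches lie after the annotated start, and no sequence is shown. Of 10336 tested genes with a window, 4.61% had one, and of all 27025 genes with a window, 2.60%. The median difference was -0.0958 for members with a match and -0.0959 for members without. Among the 20 members that were lower, the medians were -0.26 for the 8 with a match and -0.18 for the rest. Among the 14 that were not, they were -0.02 for the 4 with a match and -0.0073 for the rest. These groups were formed by the call, which rests on the same differences, so the medians within them cannot show a link to the motif. Rfc3, the member that was higher, had the same 8 letters as Mcm5. The CCAAT box, searched on both strands, was in 21 of the 34 members (61.8%) and in 42.4% of tested genes. An IRF-type motif, spelled as GAAA, any 2 bases and GAAA again, was in the windows of Orc2 and Pold2 (5.88% of members) and in 3.36% of tested genes. A match describes the letters in the window and is no measure of binding.

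Origin licensing had the lowest median of the roles: 9 of its 11 members were lower, with a median of -0.25. That share, 81.8%, stands beside 28.7% of bright genes. Among the lower ones, Cdt1, Orc6 and Mcm5 lie on chromosome 8, where 45.8% of all tested genes were lower. Whether the roles differ was not tested. Cdt1, the factor that brings the MCM helicase to the origin, had intensities of 1399, 1388 and 1412 in the GFP control and 1043, 1059 and 1073 in the labelled IRF2 arrays. The groups stood far apart, by -0.40 (SE 0.02, adjusted p = 2.37e-09). Cdc6, the ATPase that loads the helicase with Cdt1, read 362, 347 and 346 against 259, 292 and 268. Its difference was -0.37 (SE 0.04, adjusted p = 5.45e-06), again with no overlap.

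The 3 subunits of the origin recognition complex among the members were all lower. Orc1, the subunit whose level follows the cell cycle, read 123, 132 and 135 in the GFP control and 96.0, 107 and 103 in the labelled IRF2 arrays, a difference of -0.35 (SE 0.05, adjusted p = 1.16e-04). Orc6, a small subunit needed for helicase loading, went from 751, 760 and 741 to 592, 589 and 627, a difference of -0.32 (SE 0.03, adjusted p = 5.59e-07). Orc2, a core subunit, went from 377, 342 and 354 to 312, 299.7 and 290.2, a difference of -0.25 (SE 0.04, adjusted p = 1.48e-04). In all 3 genes every labelled IRF2 array lay below every control array. The other subunits, from the wider list, did not pass: Orc3 differed by -0.01 (interval -0.10 to 0.08), Orc4 by -0.02 (interval -0.09 to 0.05) and Orc5 by 0.01 (interval -0.07 to 0.09), so 3 of the 6 subunits of the complex were lower.

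The 6 subunits of the MCM ring, which work as a single complex, did not move by the same amount: 4 were lower and 2 passed in neither direction. Mcm5 read 1164, 1141 and 1149 against 919, 956 and 944, with a 95% interval of the difference from -0.34 to -0.24. Mcm7 read 2912, 2903 and 2886 against 2422, 2479 and 2539, with an interval from -0.27 to -0.18. These were the subunits with the wide gaps between groups. Mcm3 (-0.09, adjusted p = 0.0187) and Mcm6 (-0.09, adjusted p = 0.00668) were lower by little, with labelled IRF2 arrays at 755 to 777 for Mcm3 and 1093 to 1148 for Mcm6, just under the control arrays at 791 to 838 and 1193 to 1207. The Mcm3 call was lost without GFP control replicate 3 (adjusted p = 0.113) or labelled IRF2 replicate 3 (0.0683), with quantile normalization (0.0735) and with no intensity trend (0.103). The Mcm6 call was lost without labelled IRF2 replicate 2 (adjusted p = 0.0508) and with no intensity trend (0.0731).

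The other 2 MCM subunits stood on the other side of zero. Mcm4 read 1840, 1812 and 1795 in the control and 1861, 1862 and 1905 in the labelled IRF2 arrays, which lay above without overlap, and its difference of 0.05 did not pass (adjusted p = 0.0937). Mcm2 read 613, 631 and 661 against 634, 644 and 698, which overlap, and its interval ran from -0.03 to 0.13. The intervals of Mcm5 and Mcm7 lie wholly below those of Mcm2 and Mcm4; the difference between subunits was not tested itself. A further Mcm2 probe set pointed the other way (-0.05), so the sign of Mcm2 depends on the probe set read.

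**Figure D2:**
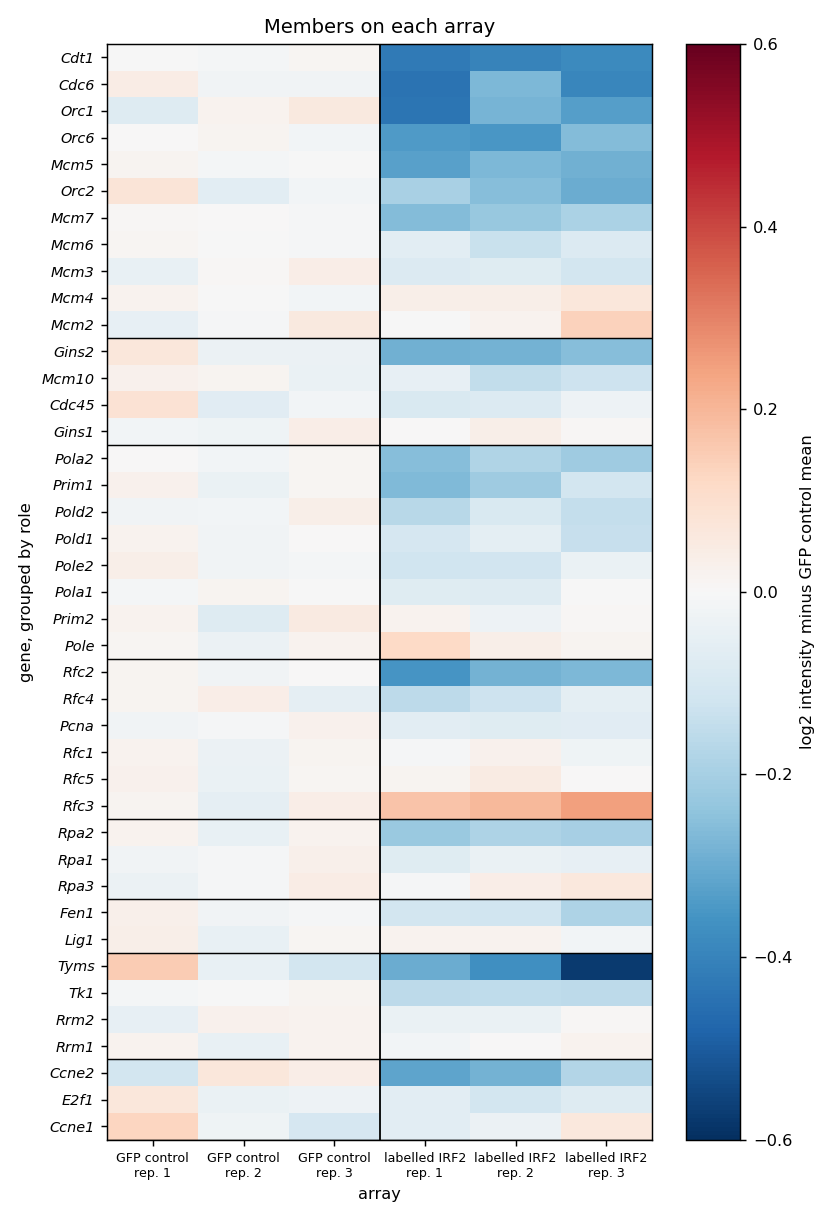
Colour gives the log2 intensity of each of the 41 members (rows, by role) on each of the 6 arrays (columns), relative to the gene's mean over the GFP control arrays. The origin licensing rows are blue on all 3 labelled IRF2 arrays except Mcm2 and Mcm4, and the Rfc3 row is red on them.

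Among the 4 genes of helicase activation, 2 were lower. Gins2, a GINS subunit, read 484, 450.4 and 450.5 against 377, 379 and 387, a difference of -0.28 (SE 0.03, adjusted p = 1.02e-05) with no overlap. Mcm10, which helps the loaded helicase start to unwind, was lower by little, at 225, 223 and 215 against 213, 199 and 202 (-0.11, adjusted p = 0.0421). That call was lost without GFP control replicate 1 (adjusted p = 0.117), GFP control replicate 2 (0.0965), labelled IRF2 replicate 2 (0.157) or labelled IRF2 replicate 3 (0.111), and with no intensity filter (0.0567), quantile normalization (0.0917), the mean of probe sets (0.0962) or no intensity trend (0.0796). Cdc45, the helicase partner of GINS, differed by -0.07 (interval -0.16 to 0.03), and Gins1, a further GINS subunit, by 0.01 (interval -0.05 to 0.08). The remaining GINS subunits, from the wider list, had values between those of Gins1 and Gins2: Gins4 was lower (-0.14, SE 0.03, adjusted p = 0.00128), and Gins3 did not pass (-0.13, interval -0.27 to 0.0039).

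Of the 8 polymerase genes, 4 were lower, and they sat in the primer-making polymerase alpha complex and in polymerase delta. Pola2, the accessory subunit of polymerase alpha, read 300.6, 297 and 302 against 251, 265 and 259, a difference of -0.22 (SE 0.03, adjusted p = 1.12e-04). In the mean of its 3 probe sets, of which the other two are below the level filter, Pola2 differed by -0.0948 and did not pass (adjusted p = 0.258). Prim1, the catalytic primase subunit, read 684, 653 and 678 against 558, 579 and 622, a difference of -0.20 (SE 0.04, adjusted p = 4.89e-04). Neither gene overlapped between groups. Their partners in the same complex did not pass: Pola1, the catalytic polymerase subunit, differed by -0.05 (interval -0.13 to 0.03), and Prim2, the large primase subunit, by 0.0001 (interval -0.09 to 0.09).

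In polymerase delta, which copies the lagging strand, Pold2, an accessory subunit, read 413, 414 and 429 against 373, 394 and 379 (-0.13, SE 0.03, adjusted p = 0.00352). Pold1, the catalytic subunit, read 308, 299 and 304 against 283, 291 and 276 (-0.10, adjusted p = 0.0297), without overlap. The Pold1 call was lost without GFP control replicate 1 (adjusted p = 0.0872), GFP control replicate 3 (0.0827), labelled IRF2 replicate 1 (0.0677) or labelled IRF2 replicate 3 (0.111), and with quantile normalization (0.05998), the mean of probe sets (0.770) or no intensity trend (0.0675). Its other probe set had the opposite sign (0.06). In polymerase epsilon, the leading-strand enzyme, neither member passed. Pole2, an accessory subunit, lay below the control on all 3 labelled IRF2 arrays (249 to 262 against 266 to 277, adjusted p = 0.0564). Its difference of -0.09 was close to that of Pold1, and it passed in 3 of 18 alternatives. Pole, the catalytic subunit, differed by 0.06 (interval -0.02 to 0.14). Whether the polymerases differ from each other was not tested.

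The clamp and its loader held the members with the most unlike values. Rfc2, a small subunit of the loader, read 610.4, 595 and 603 against 472, 495 and 501, a difference of -0.30 (SE 0.03, adjusted p = 1.11e-06). Rfc3, a subunit of the same loader, read 288, 274 and 293 against 321, 326 and 338, a difference of 0.20 (SE 0.04, adjusted p = 3.07e-04). Both genes separated the groups without overlap, in opposite directions, and a further Rfc3 probe set gave the same rise (202, 198 and 202 against 235, 233 and 225, also 0.20).

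Rfc4, a small loader subunit, was lower by -0.11 (adjusted p = 0.0180), with 372 to 398 on the labelled IRF2 arrays and 399 to 426 in the control. That call was lost without GFP control replicate 1 (adjusted p = 0.0508), GFP control replicate 2 (0.0668), labelled IRF2 replicate 1 (0.0818) or labelled IRF2 replicate 2 (0.0643), and with quantile normalization (0.0773) or no intensity trend (0.0830). Rfc1, the large subunit, differed by -0.0029 (interval -0.07 to 0.07) and Rfc5, a small subunit, by 0.02 (interval -0.04 to 0.08). Pcna, the clamp itself, read 6131, 6189 and 6321 against 5950, 5907 and 5919, a small difference of -0.07 (adjusted p = 0.00577) whose call was lost without GFP control replicate 3 (0.0526) and with no intensity trend (0.127). The loader genes therefore spanned both directions, while the clamp differed little.

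Of the 3 subunits of RPA, the complex that coats single-stranded DNA at the fork, the middle subunit Rpa2 was lower, at 605, 578 and 605 against 509.7, 525 and 519 (-0.20, SE 0.03, adjusted p = 4.62e-05). The large subunit Rpa1 lay below the control on every labelled IRF2 array (1569 to 1606 against 1626 to 1685) and did not pass (-0.05, adjusted p = 0.0675). The small subunit Rpa3 differed by 0.03 (interval -0.03 to 0.10). For the joining of Okazaki fragments, the flap nuclease Fen1 was lower, at 1028, 992 and 1004 against 933, 929 and 885 (-0.14, SE 0.03, adjusted p = 6.90e-04), with no overlap. The DNA ligase Lig1 differed by 0.007 (interval -0.05 to 0.06).

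Deoxynucleotide supply divided by enzyme. Tyms, thymidylate synthase, read 44.9, 39.2 and 37.5 against 32.9, 31.3 and 27.2; its difference of -0.41 (SE 0.09, adjusted p = 0.00182) was the largest among the members and had the largest error, and its probe set was the dimmest of the 41. Tk1, the thymidine salvage kinase, read 1719, 1733 and 1754 against 1555, 1560 and 1558, a difference of -0.16 (SE 0.02, adjusted p = 2.06e-05). The groups of both thymidine enzymes did not overlap. The 2 subunits of ribonucleotide reductase, which makes deoxynucleotides, did not pass: the large subunit Rrm1 read 1642, 1566 and 1641 against 1600, 1621 and 1638 (interval -0.05 to 0.05), and the small subunit Rrm2 read 3437, 3627 and 3614 against 3461, 3460 and 3571 (interval -0.07 to 0.02).

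Among the 3 G1/S regulators, Ccne2, a cyclin E, was the member that was lower. Ccne2 read 446, 504 and 495 against 386, 396 and 426, a difference of -0.26 (SE 0.05, adjusted p = 3.47e-04) with no overlap. Ccne1, the other cyclin E, read 201, 179.9 and 171 against 175, 179 and 192, which overlap (-0.01, adjusted p = 0.900). A dimmer Ccne1 probe set gave 160, 159 and 149.6 against 133, 137 and 134, a difference of -0.21 (adjusted p = 0.00182 over all probe sets), so whether Ccne1 resembles Ccne2 depends on the probe set read; the difference between the cyclins was not tested. E2f1, an activator of the E2F family, read 408, 379 and 380.5 against 372, 359.9 and 368, below the control on every array but not past the threshold (-0.08, adjusted p = 0.0707).

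Most members could be read from more than 1 probe set, which checks each result within the same arrays. The members had 81 probe sets above the level filter, and 28 members had several. In 21 of these the probe sets had the same sign, and in 7 the signs differed (Mcm2, Gins1, Prim2, Pold1, Rfc1, Rrm1 and E2f1). With p-values adjusted over all probe sets above the filter, every probe set was lower in 10 members (Orc2, Cdt1, Mcm5, Mcm7, Gins2, Prim1, Rfc4, Rpa2, Fen1 and Tyms), and both were higher in Rfc3. Calls were mixed in 7 (Orc1, Mcm3, Mcm6, Pold1, Rfc1, Rfc2 and Ccne1), 10 had no call, and no member was called in both directions. The 4 Mcm7 probe sets ran from -0.23 to -0.20, the 2 of Cdt1 stood at -0.40 and -0.41, and the 2 of Mcm5 at -0.29 and -0.38. In Rfc1 the dimmest of 3 probe sets was lower (-0.14, adjusted p = 0.0346), beside -0.0029 and 0.06 in the other two. In Orc1 the dimmer probe set, at -0.16, did not pass (adjusted p = 0.0892).

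**Figure D3:**
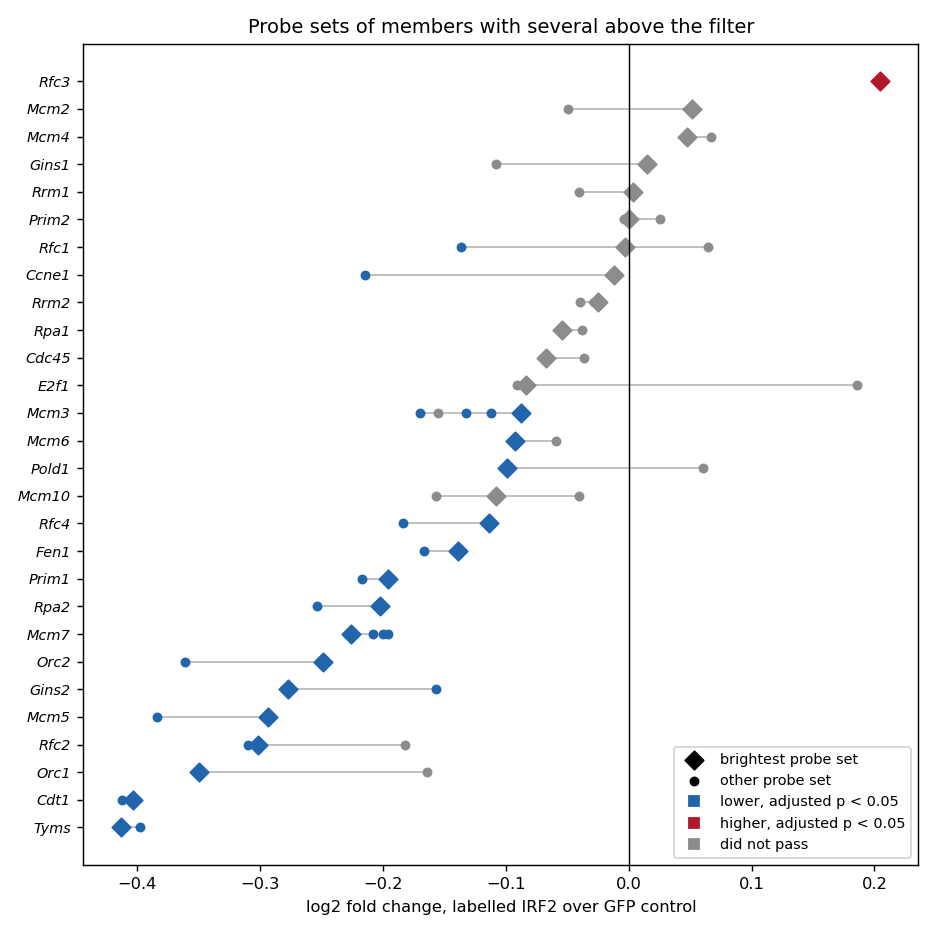
Each point is the log2 difference of 1 probe set, labelled IRF2 over GFP control, for the 28 members with several probe sets above the level filter; colour marks an adjusted p under 0.05 over all probe sets above the filter, and a diamond marks the brightest probe set of each gene. The Cdt1 and Mcm7 points lie close together, the 2 Rfc3 points coincide at 0.20, and the Mcm2 points fall on both sides of zero.

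Some of the members with the largest decreases lie on chromosome 8. Genes of chromosome 8 were lower as a whole: of 688 tested, 45.8% were lower and 6.5% higher, with a median of -0.11. The medians of the other chromosomes with at least 20 tested genes ran from -0.04 to 0.03, and their share of lower genes from 11.6% to 31.1%. The 4 members on chromosome 8 (Orc6, Cdt1, Mcm5 and Gins2) were all lower, with a median of -0.31, and were 4 of the 8 members with the largest decreases. The rest of those 8 were Tyms, Cdc6, Orc1 and Rfc2, which lie on other chromosomes. Irf2 lies on that chromosome too (chr8:46739745-46847458).

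Members on the other chromosomes were lower too. Of these 37, 19 were lower (51.4%) and 1 higher, with a median of -0.0878, against 18.3% lower and a median of 0.0037 over the 12107 tested genes off chromosome 8. Among bright genes of every chromosome, 28.7% were lower. Chromosome 11 (31.1% lower) and chromosome 4 (28.7% lower) also had more lower genes than most; Orc1, Rpa2 and Ccne2 on chromosome 4 were all lower, and 3 of 4 members on chromosome 11 (Cdc6, Pold2 and Tk1, not Rpa1). When every gene was set against the median change of its own chromosome, an alternative added after seeing the data, 25 members were lower and 1 higher. That centring brought the chromosome 8 members closer to zero, all still lower: Cdt1 from -0.40 to -0.29, Orc6 from -0.32 to -0.20, Mcm5 from -0.29 to -0.18 and Gins2 from -0.28 to -0.16. Chromosome 5, whose median was slightly positive at 0.03, held 7 members with both the largest decrease (Tyms) and the increase (Rfc3). Of its tested genes, 21.1% were lower and 29.0% higher, beside 16.5% higher over all genes tested. No other chromosome with at least 20 tested genes had a larger share of higher genes.

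**Figure D4:**
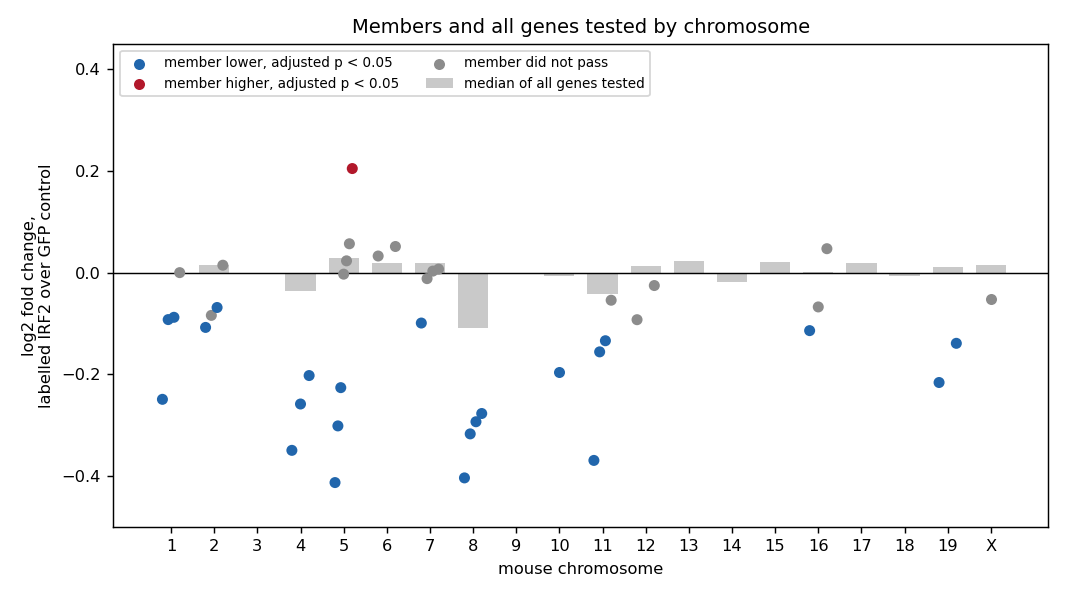
Points are the log2 differences of the 41 members, labelled IRF2 over GFP control, by mouse chromosome, and grey bars the median of all genes tested on that chromosome. The bar of chromosome 8 stands at -0.11 with its 4 members below it, and lower members also lie on chromosomes whose bar is near 0.

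Other genes of DNA replication, from a wider list of 47, were lower in 18 of the 45 tested and higher in 2, with a median of -0.08, beside the 19.8% of all genes and 28.7% of bright genes that were lower. The tested genes of this list on chromosome 8, named after their values were seen, were Asf1b, Chtf8, Dctd, Gins3, Gins4 and Rnaseh2a. All of them but Gins3 were lower. Of the tested genes left without them, 13 were lower and 2 higher. The share that was lower among these lay nearer to the 28.7% of bright genes than the share of the full list did. Whether it differs from that of bright genes was not tested. Slbp, which binds histone mRNA for S-phase histone supply, had a difference of -0.37 (SE 0.02, adjusted p = 5.65e-09). Asf1b, a histone chaperone, differed by -0.42 (SE 0.03), Topbp1, which recruits factors to start replication, by -0.28 (SE 0.03), and Tipin, a part of the fork protection complex, by -0.20 (SE 0.02). The 2 that were higher, named after their values were seen, were Pold4, the smallest subunit of polymerase delta (0.32, SE 0.04), and Timeless, the partner of Tipin (0.16, SE 0.05). Pold4 thus stood opposite to Pold2, at 417 ± 21.7 in the GFP control and 518 ± 15.4 in the labelled IRF2 arrays (SD, n = 3), and Timeless turned sign in the mean of its probe sets (-0.0083). The Timeless call was also lost without GFP control replicate 1 (adjusted p = 0.0553) or labelled IRF2 replicate 2 (0.120), and with no intensity trend (0.0682).

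In the network of E2F, RB and CDK2 genes that controls the G1/S step, 6 of 21 were lower and 1 higher (median -0.03), a share of 28.6% beside the 28.7% of bright genes. Tfdp1, the dimer partner of E2F proteins, had a difference of -0.30 (SE 0.02, adjusted p = 6.75e-08). Tfdp1 lies on chromosome 8, and without the genes of that chromosome 5 genes of the list were lower and 1 higher. E2f7, a repressing E2F, differed by -0.26 (SE 0.05), Cdc25a, the phosphatase that activates CDK2, by -0.23 (SE 0.03) and Cdk2 itself by -0.15 (SE 0.03), which did not pass when its probe sets were averaged. Cks1b, a CDK-binding subunit named after its value was seen, was higher by 0.06 (SE 0.02), a call that was lost without GFP control replicate 1 (adjusted p = 0.0609), GFP control replicate 3 (0.179), labelled IRF2 replicate 2 (0.140) or labelled IRF2 replicate 3 (0.0952), and with median centring (0.173) or no intensity trend (0.227).

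Genes of the replication checkpoint and of fork repair were lower in 6 of 16 tested and higher in none by limma's adjusted p (2 at an unadjusted p under 0.05), with a median of -0.06. The share that was lower, 37.5%, stands beside 28.7% of bright genes. The 4 named here had the smallest p. Brca2, which loads the recombinase on broken forks, differed by -0.48 (SE 0.05, adjusted p = 4.05e-06), Brca1, its partner in repair, by -0.22 (SE 0.03), the nuclease Exo1 by -0.25 (SE 0.05) and Hus1, a part of the checkpoint clamp, by -0.27 (SE 0.05). Mitotic genes, which follow S phase, were lower in 12 of 19 tested and higher in 2, with a median of -0.12. Their share that was lower, 63.2%, stands beside 56.1% of the members, 28.7% of bright genes and 19.8% of all genes tested. The median of the members was -0.0925, so the lower level was not particular to the replication genes. Cenpa, the centromere histone, differed by -0.27 (SE 0.02, adjusted p = 8.19e-08). Cdca8 and Birc5, subunits of the chromosomal passenger complex, differed by -0.19 (SE 0.03) and -0.18 (SE 0.02), and Cdc20, an activator of the anaphase-promoting complex, by -0.15 (SE 0.02). The 2 that were higher, named after their values were seen, were the mitotic cyclin Ccnb2 (0.14, SE 0.02) and the spindle factor Tpx2 (0.11, SE 0.03), whose call was lost with the mean of probe sets (adjusted p = 0.0603) or no intensity trend (0.0530). Whether these lists differ from the 41 members was not tested.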

How the data were processed

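The authors deposited 1 linear intensity per probe set and array; of the tools behind it, the submitters' processing notes list MAS5 alone, without saying what it did, and the sources used here state no normalization. Of 45037 probe sets other than controls, 34945 had 1 gene symbol, 932 several and 9160 none, from the platform annotation supplied with the series; 34741 of the first matched a RefSeq gene. Each of 18193 genes was read from its brightest probe set (mean over all 6 arrays). Genes whose mean exceeded the 40th percentile (intensity 11.3) were tested: 12795. Log2 intensities, with no further normalization, were fitted with limma 3.58.1 (R 4.3.3; intensity trend in the empirical Bayes step, 4 residual degrees of freedom), and p-values were adjusted by Benjamini-Hochberg over all genes tested, with calls at 0.05. The fit was tested on simulated data, in which 67, 67 and 66 genes were changed by 0.2, 0.5 and 1 on the log2 scale. It recovered 35.8%, 86.6% and 98.5% of them, and 4.55% of its calls were false. Genes that did not pass may therefore still differ by small amounts. The real fit called far more genes (2531 lower and 2111 higher) than the simulation changed. The changed genes were drawn from all genes tested, dim ones included, while 40 of the 41 members are bright. The recovered shares therefore do not describe the members themselves. Intervals are 95% and unadjusted. With 3 arrays a group, precision is limited by that number; the median SE of the members was 0.03. Probe sets are not comparable in level with each other. Genes named are all members, up to 4 of the smallest p in each other list, Irf2, and those said in the text to be chosen after their values were seen; cell type markers, and Orc3, Orc4, Orc5, Gins3 and Gins4, which complete complexes of the members, were likewise named after their values were seen. The members and lists were chosen with earlier results of these data known.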

Additional observations from a re-analysis of the deposited data

How the results depend on the processing

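Over 18 alternatives (16 planned, and 2, leaving out chromosome 8 and centring by chromosome, chosen after seeing the data), between 17 (no intensity trend) and 25 members were lower, 1 was higher in each, and the median ran from -0.1077 to -0.0832. Of the 24 called members, 17 kept their call in every alternative that held them; Mcm3, Mcm6, Mcm10, Pola2, Pold1, Pcna and Rfc4 lost it in at least 1. With a replicate block, 23 members were lower; the numbers do not pair the arrays (correlations of same-number deviations 0.0722, -0.0763 and -8e-04). Pold1 turned to 0.0607, and Mcm2 to -0.0496, without probe sets marked _s_ or _x_. The mean of all probe sets gave -0.0466 for Gins1, -0.0293 for Rrm1, 0.0037 for E2f1 and -0.0083 for Timeless. Median centring gave -0.0098 for Prim2, -0.0028 for Lig1 and -0.0067 for Rrm1, quantile normalization 0.0088 for Rfc1 and 0.0001 for Ccne1, 16 added before the log 0.0 for Prim2, and centring by chromosome -0.0021 for Prim2, -0.0064 for Rfc5, -0.0122 for Lig1 and -0.016 for Rrm1. Leaving out 1 array at a time, 20 to 22 members were lower; Prim2 ran from -0.038 to 0.0272, Rfc1 from -0.021 to 0.0089, Lig1 from -0.0159 to 0.0245, Rrm1 from -0.0195 to 0.0148 and Ccne1 from -0.0631 to 0.0532, and the counts of higher genes were 1 to 3 (other replication factors), 0 to 1 (E2F network) and 0 to 1 (checkpoint). None of the genes named for a turned sign was called except Pold1 and Timeless. The small counts of higher genes moved: the other replication factors had 1 with the mean of probe sets or no intensity trend, the E2F network 2 with quantile normalization or the mean of probe sets and 0 with median centring or no trend, the checkpoint list 1 with the stricter filter (intensity 33.5), and the mitotic list 1 with the mean of probe sets or no trend. The cause of these was not tested.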

Other observations

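The lower level of chromosome 8 genes ran along the whole chromosome. In bins of 20 megabases, each with 45 to 147 tested genes, the median difference lay between -0.13 and -0.09. Among the wider lists of replication, G1/S, checkpoint and mitotic genes, 9 tested genes lie on chromosome 8, of which 6 were lower, none higher and 3 neither, with a median of -0.15. The other 92 tested genes of those lists had 36 lower and a median of -0.07. Over all genes tested, 45.8% were lower on chromosome 8 and 18.3% off it, and 28.7% of bright genes were lower. Whether the lists differ from these shares was not tested.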
